A study of Mus musculus with 4 samples.

Results

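The immediate early and growth factor response genes are the genes that a cell switches on within minutes to hours of a growth factor, serum or stress signal. The 40 members described here were taken by symbol: AP-1 subunits, Egr and Klf factors, growth factor ligands, feedback inhibitors and other serum response genes. All 40 were present among the 21881 gene symbols of the expression table. Of these, 36 averaged 1 FPKM or more and were tested among 11346 genes. FPKM divides the fragments of a gene by transcript length and by library size, so levels can be compared between genes. The 4 members under that level were Fosb, Egr3, Areg and Spry4.

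The cells were mesenchymal stem cell lines, fibroblast-like cells of adult bone marrow, made from C57BL/6 mice. All carried the Dicer f/f genotype, which leaves Dicer working. Clone 6 and clone 12 are separate immortalised lines, each grown from a single cell. Each clone received the pMMP-puro retrovirus either empty (vector, n = 2 libraries) or carrying Flag-HA-NR6A1 (n = 2 libraries). NR6A1 is a nuclear receptor without a known ligand that represses genes in germ cells and early embryos, and the series places its gene under the control of the let-7 microRNAs. The lines grew in medium with fetal bovine serum, and the labels give no step in which serum was withdrawn or added back. Pairs of values below give clone 6 first and clone 12 after it. Each virus and clone had 1 library, so the spread between repeat cultures of a clone was not measured.

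Growth factors bind receptor tyrosine kinases and start the Ras, Raf, MEK and ERK kinase cascade. ERK activates ternary complex factors that sit with serum response factor (SRF) on promoters, and genes such as Fos and Egr1 are then transcribed without new protein synthesis. Their products are transcription factors that start a later set of genes, together with phosphatases and Sprouty proteins that shut the kinase cascade down. A second route runs through the actin cytoskeleton and the co-activators YAP and TAZ, which bind TEAD factors and switch on Cyr61, Ctgf and Ankrd1. Most of these transcripts are short-lived, so their level follows recent signalling.

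The promoter stretches below carry the SRF or TEAD element of the routes above or, in Dusp1, an element of neither. All are from members whose values the results turn on. They are RefSeq sequences of build GRCm38.p6, printed 5′ to 3′ on the strand of the gene, with positions counted back from the annotated start. In the stretches of Dusp5, Zfp36 and Egr2 the capitals mark CArG boxes, the SRF-binding element. In Dusp1 they mark TGACGTCA, the cyclic AMP response element. In Ankrd1 and Cyr61 they mark GGAATG, the TEAD-binding letters, read on either strand.
Dusp5 (chr19:53529035-53529110, plus strand, -110 to -35): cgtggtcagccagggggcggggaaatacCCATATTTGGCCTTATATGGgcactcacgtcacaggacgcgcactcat
Zfp36 (chr7:28379249-28379314, minus strand, -86 to -21): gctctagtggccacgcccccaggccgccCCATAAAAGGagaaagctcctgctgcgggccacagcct
Egr2 (chr10:67537769-67537834, plus strand, -100 to -35): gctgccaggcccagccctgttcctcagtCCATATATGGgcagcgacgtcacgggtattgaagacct
Dusp1 (chr17:26508580-26508643, minus strand, -171 to -108): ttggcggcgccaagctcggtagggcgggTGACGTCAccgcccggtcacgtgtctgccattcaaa
Ankrd1 (chr19:36119934-36120082, minus strand, -238 to -90): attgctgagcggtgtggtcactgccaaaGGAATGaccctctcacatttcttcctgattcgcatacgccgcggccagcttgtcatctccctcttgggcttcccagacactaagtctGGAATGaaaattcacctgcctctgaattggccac
Cyr61 (chr3:145650055-145650116, minus strand, -131 to -70): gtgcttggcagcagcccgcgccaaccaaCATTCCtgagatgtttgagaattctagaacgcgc

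RefSeq windows from 250 bases before to 50 bases after a start were matched for 28 of the 40 members, in 42 windows. The CArG box was searched on both strands and lay in 6 of the 42 windows (14.3%), against 1.63% of 32851 windows of all genes. These 6 windows belonged to 3 genes, Dusp5, Egr2 and Zfp36, and 4 of them were windows of Egr2, some of which overlap. TGACGTCA lay in 3 windows (7.14%, against 1.79% of all), those of Dusp1, Areg and Maff. TGACG, a part of that element, lay in 21 windows of 15 genes (50% of the windows, against 20.8% of all). The AP-1 letters TGANTCA lay in 2 windows (4.76%, against 7.81% of all). GGAATG lay in 5 windows (11.9%, against 14.7% of all), so its share among the members was no higher than among all genes. In Dusp5 the pair of CArG boxes stood end to end. A match describes the letters only. Sites outside these windows were not searched, so a member without a match may still carry the element further from its start.

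Depth was inferred to lie between 20.4 and 24.2 M mapped reads a library (M, 1e6). Nr6a1 stood at 4.18 and 2.80 FPKM in vector cells and 783 and 598 in NR6A1 cells, which matches the labels. Of 10 mesenchymal markers, 9 were at 1 FPKM or more in some library, while Thy1, a defining surface marker, was at 0.0297 FPKM or less. The 5 endothelial markers stayed at 0.141 FPKM or less. Of 8 blood cell markers, 2 were at 1 FPKM or more in some library, Cd34 and Cd68. Ptprc was at 0.0234 FPKM or less and Cd3e was listed at 0 in every library, but Cd34, which other cells also express, was at 13.9 and 9.99 FPKM in clone 12 and at 0.116 and 0.131 in clone 6. Cd68, a macrophage marker, was at 1.12 to 2.16 FPKM in the 4 libraries. Of the epithelial markers, Krt14 alone passed 1 FPKM, at 12.9 in the vector library of clone 6 and at 0.298 to 1.5 in the others.

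The first comparison asked which of these genes differ when NR6A1 is raised. In clone 6, 27 of the 36 tested members were higher with NR6A1 (52.2% of all tested genes were), and 10 were higher by at least 1.5-fold (3.05% of all tested genes): Fos, Atf3, Maff, Egr1, Hbegf, Dusp1, Dusp5, Dusp6, Ankrd1 and Rhob. In clone 12, 15 of 36 were higher (47.0% of all), and Ankrd1 alone was higher by at least 1.5-fold (1.29% of all). Klf4, Dusp4 and Ptgs2 were lower by at least 1.5-fold in clone 6 (3.39% of all), and Dusp4 alone in clone 12 (2.50% of all). All these differences are on the log2(FPKM + 1) scale, on which changes of genes at low levels come out too small. The median difference was 0.34 log2 units in clone 6 and -0.015 in clone 12, against 0.011 and -0.0096 over all tested genes. With a pseudocount of 5 in place of 1, the number higher by at least 1.5-fold in clone 6 was 6.

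None of the 36 members passed the test over all genes (limma with clone as a block, Benjamini-Hochberg adjusted p under 0.05; 0.0353% of all tested genes passed). At an unadjusted p under 0.05, 8 members were higher (3.47% of all) and 3 lower (5.01% of all). The 8 were Maff, Klf2, Klf6, Hbegf, Dusp6, Cyr61, Ankrd1 and Rhob, and the 3 were Klf4, Klf10 and Dusp4. In both clones 12 members were higher (28.9% of all) and 6 lower (29.4% of all), shares near or below those of all genes. A further 15 were higher in clone 6 and lower in clone 12 (23.1% of all), and 3 went the other way (17.9% of all). The vector and NR6A1 groups did not overlap for 5 members with NR6A1 above (9.68% of all) and 3 with NR6A1 below (10.7% of all). Whether the clones differ in their response was not tested, since each clone had 1 library per virus.

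**Figure D1:**
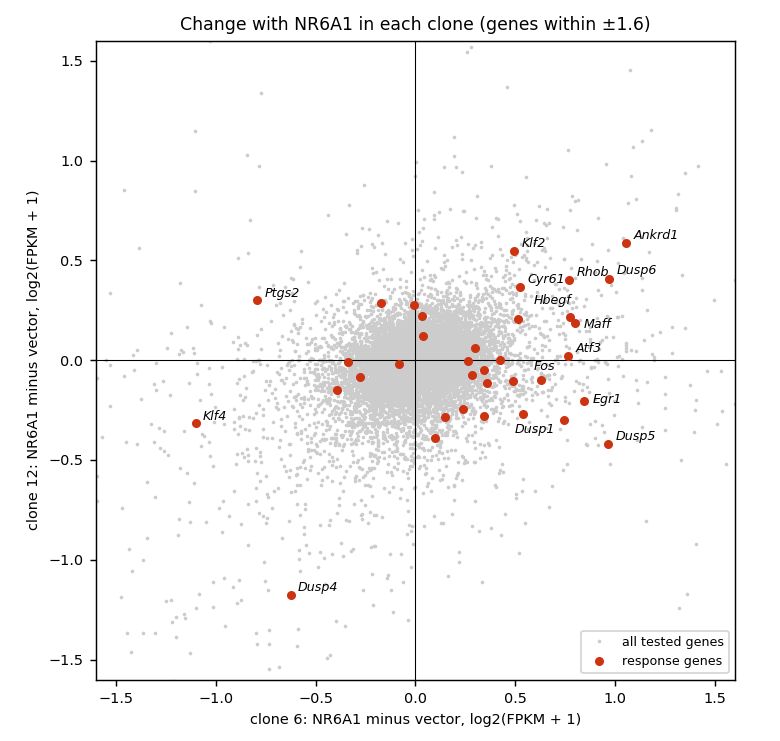
Change with NR6A1 in clone 6 (x axis) and in clone 12 (y axis), each as NR6A1 minus vector in log2(FPKM + 1), for the 36 tested response genes (red) and all tested genes within the plotted range (grey). Ankrd1 lies at 1.06 and 0.59 and Dusp4 at -0.62 and -1.18, while Dusp5 lies at 0.97 and -0.42.

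The second comparison was between the lines. Clone 12 stood above clone 6 for most members, whichever virus the cells carried: 31 of 36 were higher in clone 12 in both the vector and the NR6A1 libraries (43.9% of all tested genes), and Jund and Ctgf were lower in both (35.9% of all). By limma with virus as a block, 16 members passed an adjusted p of 0.05 (21.9% of all tested genes did). Of these, 15 were higher in clone 12 (11.5% of all) and Ctgf was lower (10.5% of all). The 15 were Fos, Jun, Junb, Egr1, Egr2, Klf6, Klf10, Myc, Ier2, Hbegf, Ereg, Dusp5, Zfp36, Ier3 and Trib1. The median of the fitted signed difference, clone 12 minus clone 6, was 0.57 log2 units over the members. Over all tested genes, where both directions offset each other, it was 0.04. Each clone is 1 line, so a difference between lines and one between the cultures of those lines cannot be told apart.

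The distance between the clones was smaller with NR6A1 for most members, as it was for most tested genes. With vector, 15 of 36 members were at least 2-fold higher in clone 12 (4.95% of all), and with NR6A1 5 were (3.16% of all): Junb, Egr1, Dusp5, Ier3 and Ptgs2. The median signed difference, clone 12 minus clone 6, was 0.75 log2 units with vector and 0.53 with NR6A1. Over all tested genes it was 0.04 and 0.02, where genes higher and genes lower in clone 12 offset each other. Without regard to sign, the difference was smaller with NR6A1 for 25 of 36 members, and also for 60.2% of all tested genes. These values share their libraries with the per-clone changes above and are a second view of the same 4 libraries. The 16 calls between clones rested on all 4 libraries: in fits that left out 1 library, and with it the virus term, 2 remained without the vector library of clone 6, 10 without the NR6A1 library of clone 6, and 0 without either library of clone 12. With no filter on low values 0 remained, and 21 passed without short RNA genes.

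**Figure D2:**
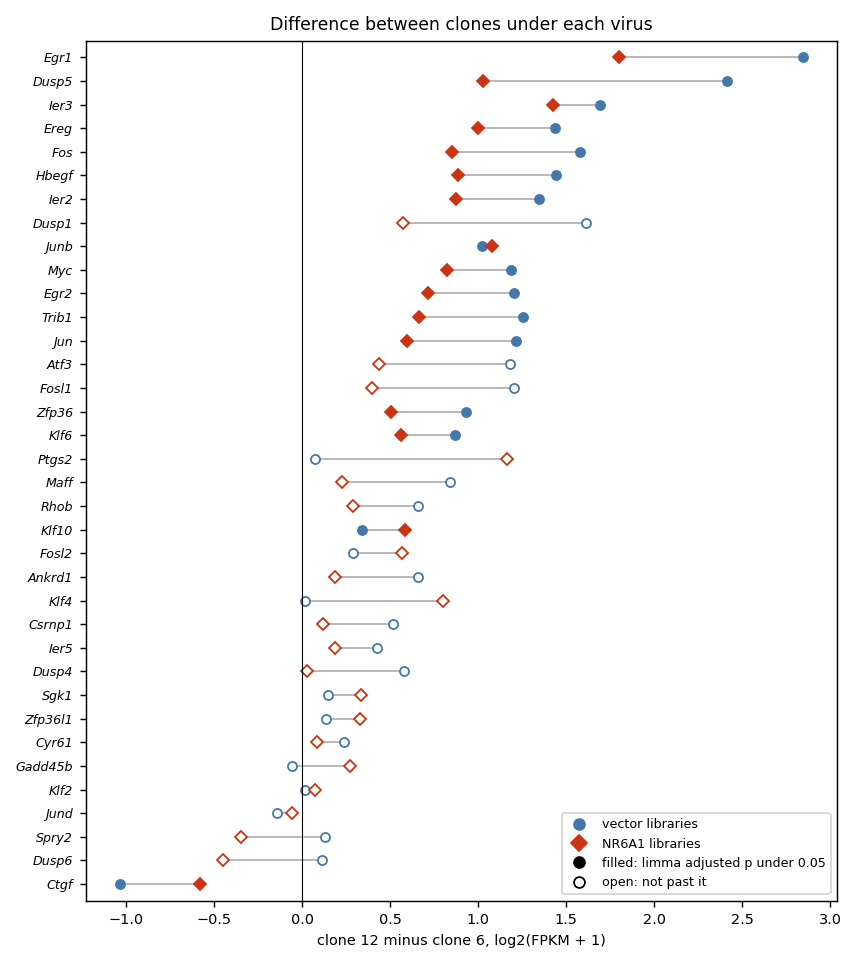
Clone 12 minus clone 6 in log2(FPKM + 1) for each of the 36 tested members, in the vector libraries (blue circles) and in the NR6A1 libraries (red diamonds). Filled symbols mark the 16 members past a limma adjusted p of 0.05 between clones; Egr1 runs from 2.85 with vector to 1.80 with NR6A1, and Ctgf is on the negative side under both.

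The upstream ligands of the EGF receptor followed the clone. Hbegf, the heparin-binding EGF-like growth factor, was at 6.61 and 19.7 FPKM in vector cells and 12.0 and 23.1 in NR6A1 cells. Clone 12 was above clone 6 in every library (log2 difference 1.16 ± 0.16, SE, limma adjusted p = 0.0261), and within each clone NR6A1 was above vector (0.50 ± 0.16, limma adjusted p = 0.564). Ereg, which encodes epiregulin, was at 0.303 and 2.52 FPKM in vector cells and 0.444 and 1.88 in NR6A1 cells, from about 29 to 226 inferred reads. It differed between clones by 1.22 ± 0.21 (limma adjusted p = 0.0358). Areg, which encodes amphiregulin, was under the filter, at 0.0823 and 1.13 FPKM in vector cells and 0 and 0.439 in NR6A1 cells, so its highest value stood for about 26 reads. All 3 ligands were higher in clone 12 than in clone 6 under either virus, but Areg was not tested.

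AP-1 is a dimer of Fos-type and Jun-type proteins. Fos was at 2.34 and 8.98 FPKM in vector cells and 4.16 and 8.30 in NR6A1 cells. Both clone 12 libraries lay above both clone 6 libraries (1.21 ± 0.21, limma adjusted p = 0.0351), while the virus difference was 0.63 in clone 6 and -0.10 in clone 12. Fosl1, which encodes the Fos-related protein Fra-1, was the more abundant Fos-type gene, at 35.0 and 81.9 FPKM in vector cells and 51.3 and 67.9 in NR6A1 cells. Its clone difference of 0.80 ± 0.22 did not pass (limma adjusted p = 0.0725). Fosl2 was at 28.2 and 34.7 against 28.1 and 42.1 FPKM. Fosb, under the filter, was at 0.402 and 0.401 FPKM in vector cells and 0.542 and 0.544 in NR6A1 cells, about 31 to 39 reads.

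Among the Jun-type genes, Junb had the highest level. Junb was at 91.1 and 186 FPKM in vector cells and 86.1 and 183 in NR6A1 cells, so it followed the clone (1.05 ± 0.07, limma adjusted p = 0.0137) with a virus difference of -0.05 ± 0.07 (limma adjusted p = 0.833). Jun was at 17.4 and 41.7 against 22.3 and 34.2 FPKM, also higher in clone 12 (0.90 ± 0.17, limma adjusted p = 0.0401). Jund, a Jun gene that is expressed more steadily than its relatives, was at 61.9 and 56.0 against 63.6 and 61.0 FPKM, so its 4 values lay close together. The stress-induced partner Atf3 was at 2.96 and 7.98 FPKM in vector cells and 5.72 and 8.11 in NR6A1 cells. Maff, a small Maf protein gene, was at 9.60 and 17.9 against 17.5 and 20.6 FPKM. In both, the vector library of clone 6 was the low one and the other 3 lay closer together.

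Egr1, the zinc-finger factor most often used as a readout of ERK signalling, had the largest clone difference of the 36. It was at 12.3 FPKM in the vector library of clone 6, 22.8 in the NR6A1 library of clone 6, 81.8 in the NR6A1 library of clone 12 and 94.3 in the vector library of clone 12. The clone difference was 2.32 ± 0.27 (limma adjusted p = 0.0224), or in plain FPKM 7.70-fold with vector and 3.59-fold with NR6A1. Its relative Egr2, whose promoter stretch with a CArG box is printed above, was at 0.669 and 2.85 FPKM in vector cells and 0.787 and 1.94 in NR6A1 cells (0.96 ± 0.21, limma adjusted p = 0.0494), from about 11 to 45 reads. Egr3 was under the filter, at 0.0417 and 1.22 against 0.315 and 0.442 FPKM, about 3 to 70 reads. All 3 Egr genes were lowest in the vector library of clone 6 and highest in the vector library of clone 12.

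The Klf factors, zinc-finger proteins that bind GC-rich promoters, did not share a direction. Klf2, a factor that restrains growth and inflammation in several cell types, was at 4.12 and 4.17 FPKM in vector cells and 6.20 and 6.57 in NR6A1 cells, higher by 0.49 in clone 6 and 0.55 in clone 12 (0.52 ± 0.10 in the fit, limma adjusted p = 0.364). In FPKM without the pseudocount this was 1.51-fold and 1.57-fold. The groups did not overlap, and the difference was alike in the clones. Klf4, a factor of epithelial differentiation and of reprogramming to pluripotency, was at 24.0 and 24.3 FPKM in vector cells and 10.7 and 19.3 in NR6A1 cells, a difference of -1.10 in clone 6 and -0.32 in clone 12 (-0.71 ± 0.21, limma adjusted p = 0.548). Klf6 was at 21.7 and 40.4 against 31.4 and 46.7 FPKM and differed between clones (0.71 ± 0.11, limma adjusted p = 0.0285). Klf10, a gene induced early by TGF-beta, was at 25.9 and 33.0 against 19.4 and 29.7 FPKM (clone difference 0.46 ± 0.10, limma adjusted p = 0.0450).

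Of the other nuclear genes, Myc, the growth regulator, was at 42.4 and 97.7 FPKM in vector cells and 51.8 and 92.6 in NR6A1 cells. Ier2, a small nuclear protein gene of the early response, was at 57.5 and 148 against 73.9 and 136 FPKM. Both were higher in clone 12 under either virus (1.005 ± 0.11, limma adjusted p = 0.0211, for Myc, and 1.11 ± 0.14, limma adjusted p = 0.0231, for Ier2). Ier5 was at 22.9 and 31.0 against 28.4 and 32.4 FPKM, and Csrnp1 at 3.73 and 5.76 against 5.01 and 5.53. For neither did the clone difference pass.

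The feedback inhibitors split by member. Dusp1, a nuclear phosphatase of MAP kinases whose promoter carries the TGACGTCA printed above, was at 8.02 and 26.6 FPKM in vector cells and 14.1 and 21.4 in NR6A1 cells, 0.74 higher in clone 6 and -0.30 in clone 12. Dusp5, a nuclear phosphatase specific to ERK, was at 4.09 and 26.1 against 8.93 and 19.3 FPKM. It was 6.39-fold higher in clone 12 with vector and 2.16-fold with NR6A1 (1.72 ± 0.36, limma adjusted p = 0.0459). The clone difference of Dusp1 did not pass (1.09 ± 0.28, limma adjusted p = 0.0642). From low to high, the libraries of Dusp5 ran vector clone 6, NR6A1 clone 6, NR6A1 clone 12, vector clone 12. Fos, Egr1 and Dusp1 had the same order, and so did other members, among them Fosl1, Jun, Myc, Ier2, Ier3 and Trib1. Whether the CArG boxes of Dusp5 have a part in this order was not tested.

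Dusp6, Dusp4 and Spry2 did not have that order. Dusp6, the cytoplasmic ERK phosphatase, was at 3.98 and 4.38 FPKM in vector cells and 8.77 and 6.14 in NR6A1 cells, so the groups did not overlap (0.69 ± 0.17, limma adjusted p = 0.468). Dusp4, a nuclear phosphatase of ERK and other MAP kinases, was at 4.96 and 7.89 FPKM in vector cells and 2.87 and 2.94 in NR6A1 cells. It was lower by -0.62 in clone 6 and -1.18 in clone 12 (-0.90 ± 0.18, limma adjusted p = 0.363). On the log2(FPKM + 1) scale Dusp4 was the 1 tested member at least 1.5-fold lower in both clones (1.02% of all tested genes). Spry2, which encodes a Sprouty inhibitor of receptor signalling, was at 6.92 and 7.68 against 8.33 and 6.32 FPKM. Spry4 was under the filter, at 0.673 and 0.604 against 1.13 and 0.676 FPKM.

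Zfp36, which encodes tristetraprolin, a protein that binds AU-rich messages and speeds their decay, was at 14.3 and 28.2 FPKM in vector cells and 19.5 and 28.1 in NR6A1 cells. It was higher in clone 12 (0.72 ± 0.13, limma adjusted p = 0.0372). Its relative Zfp36l1 was at 21.5 and 23.7 against 17.6 and 22.3 FPKM and did not pass between clones (limma adjusted p = 0.138).

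Of the 3 targets of YAP, TAZ and TEAD, Cyr61 and Ankrd1 had the highest mean levels of all members and were higher with NR6A1 in both clones. Ankrd1, an ankyrin repeat protein of muscle and mesenchyme, was at 96.2 and 152 FPKM in vector cells and 201 and 229 in NR6A1 cells. The vector mean was 124 ± 39.6 FPKM and the NR6A1 mean 215 ± 19.9 (SD, n = 2), a difference of 0.82 ± 0.14 (SE, limma adjusted p = 0.315), and it was the 1 tested member at least 1.5-fold higher in both clones on the log2(FPKM + 1) scale (0.432% of all tested genes). Cyr61, a matrix protein that binds integrins, was at 378 and 446 FPKM in vector cells and 543 and 576 in NR6A1 cells. It was 1.44-fold higher with NR6A1 in clone 6 and 1.29-fold in clone 12, from a vector mean of 412 ± 48.3 FPKM to an NR6A1 mean of 559.5 ± 23.3 (SD, n = 2; 0.45 ± 0.08, limma adjusted p = 0.345). In both genes the lowest NR6A1 library was above the highest vector library. Ctgf, the nearest relative of Cyr61, did otherwise: it was at 80.9 and 38.9 FPKM in vector cells and 71.7 and 47.6 in NR6A1 cells, and was the 1 member past the threshold that was lower in clone 12 (-0.81 ± 0.13, limma adjusted p = 0.0332).

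The remaining members act in survival, stress and signalling. Ier3, a survival gene, was at 26.5 and 87.9 FPKM in vector cells and 32.1 and 87.8 in NR6A1 cells, a clone difference of 1.56 ± 0.10 (limma adjusted p = 0.0121), the smallest adjusted p among the members. Trib1, which encodes a pseudokinase adaptor, was at 1.59 and 5.19 against 2.64 and 4.77 FPKM (0.96 ± 0.19, limma adjusted p = 0.0433). Rhob, a small GTPase gene, was at 26.2 and 41.9 FPKM in vector cells and 45.4 and 55.7 in NR6A1 cells, higher by 0.77 in clone 6 and 0.40 in clone 12 with no overlap of the groups (0.59 ± 0.12, limma adjusted p = 0.365). Ptgs2, the inducible cyclooxygenase, was at 25.1 and 26.4 FPKM in vector cells and 14.1 and 32.8 in NR6A1 cells, so the NR6A1 library of clone 6 was the low one. Sgk1, a kinase gene induced by serum and glucocorticoid, was at 73.7 and 81.6 against 75.4 and 95.4 FPKM. Gadd45b, a stress sensor gene, was at 51.9 and 49.7 against 40.8 and 49.4 FPKM.

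**Figure D3:**
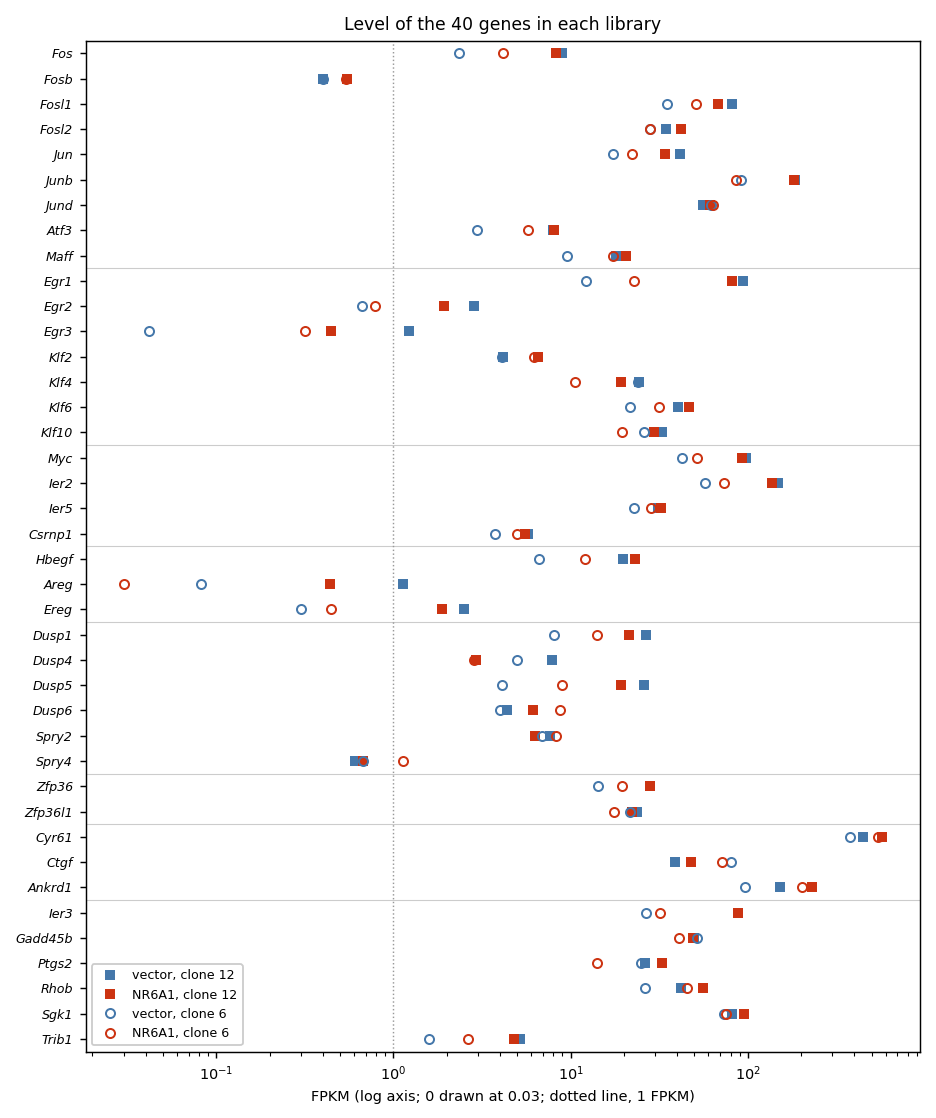
FPKM on a log axis for all 40 members in each of the 4 libraries (open circles, clone 6; filled squares, clone 12; blue, vector; red, NR6A1), with grey lines between groups of like role. For Fos, Egr1, Dusp1 and Dusp5 the open blue circle is lowest and the filled squares are highest, while for Ankrd1 and Cyr61 both red symbols lie to the right of both blue ones.

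Genes around this response were read from 8 lists chosen by role. None of their tested members passed the limma test between viruses. Of the 19 tested growth factor receptors and ERK cascade genes, 8 were higher (28.9% of all tested genes) and 4 lower (29.4% of all) with NR6A1 in both clones, with median differences of -0.01 in clone 6 and 0.04 in clone 12. Between clones, 3 of them passed as higher in clone 12 (11.5% of all) and 4 as lower (10.5% of all). Map2k1, which encodes MEK1, was at 43.7 and 85.4 FPKM in vector cells and 53.1 and 86.7 in NR6A1 cells (0.82 ± 0.09, limma adjusted p = 0.0215). Pdgfra, a PDGF receptor gene, was at 5.35 and 2.49 against 7.99 and 4.11 FPKM (-0.84 ± 0.11, limma adjusted p = 0.0237). Of 9 SRF, ternary complex and CREB factors, 3 were higher and 4 lower with NR6A1 in both clones, against the same 28.9% and 29.4% of all genes. Srf itself was at 45.6 and 34.7 FPKM in vector cells and 57.8 and 43.4 in NR6A1 cells, higher by 0.34 and 0.32 (limma adjusted p = 0.401), and lower in clone 12 than in clone 6 (-0.39 ± 0.07, limma adjusted p = 0.0362). The ternary complex factor gene Elk3 was at 34.7 in both vector libraries and at 44.0 and 38.1 FPKM in NR6A1 cells.

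Of 13 delayed response genes tested, 3 were higher with NR6A1 in both clones (28.9% of all tested genes) and 0 lower (29.4% of all). Between clones 5 passed as higher in clone 12 (11.5% of all) and 0 as lower (10.5% of all). Plaur, the urokinase receptor, was at 37.8 and 45.5 against 52.9 and 59.0 FPKM. Both NR6A1 libraries of Plaur lay above both vector libraries (limma adjusted p = 0.325). Timp1, a protease inhibitor, differed between clones instead, at 112 and 231 against 116 and 215 FPKM (0.96 ± 0.08, limma adjusted p = 0.0156).

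Of 12 YAP, TAZ and TEAD pathway genes, 3 were higher (28.9% of all tested genes) and 3 lower (29.4% of all) with NR6A1 in both clones. Yap1 was at 38.6 and 341 FPKM in vector cells and 44.9 and 230.4 in NR6A1 cells, so clone 12 held several times the level of clone 6 (2.72 ± 0.21, limma adjusted p = 0.0144), whereas its partner Wwtr1, which encodes TAZ, was at 34.3 to 36.5 FPKM throughout. Tead4 was at 3.01 and 4.49 against 4.57 and 5.79 FPKM. Lats2, a kinase gene that restrains YAP, was lower in clone 12, at 24.0 and 11.2 against 24.1 and 14.1 FPKM (-0.89 ± 0.11, limma adjusted p = 0.0228). The part of these differences in the levels of Cyr61, Ctgf and Ankrd1 was not tested.

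Among 13 other feedback inhibitors, 2 were higher (28.9% of all tested genes) and 4 lower (29.4% of all) with NR6A1 in both clones. Errfi1, an inhibitor of the EGF receptor, was at 30.3 and 63.3 FPKM in vector cells and 37.1 and 66.1 in NR6A1 cells (clone difference 0.93 ± 0.09, limma adjusted p = 0.0188), and Spry1 was lower in clone 12, at 3.79 and 1.31 against 3.49 and 1.15 (-1.06 ± 0.14, limma adjusted p = 0.0253). Of 4 other EGF receptor ligands and sheddases, Btc, which encodes betacellulin, was at 0.111 and 2.41 against 0.219 and 1.89 FPKM (1.43 ± 0.22, limma adjusted p = 0.0287). Of 9 other bZIP partners, 3 were higher and 2 lower with NR6A1 in both clones (28.9% and 29.4% of all). Atf4, a factor of the stress response to amino acid lack, was at 328 and 429 against 279 and 367 FPKM. Ddit3, a stress factor gene of the same list, was at 43.4 and 279.9 against 59.0 and 195 FPKM (2.18 ± 0.25, limma adjusted p = 0.0215). The 10 heat shock genes had 5 higher and 3 lower with NR6A1 in both clones (28.9% and 29.4% of all) and 0 that passed between clones (21.9% of all). Among them Hspb1 was at 164 and 92.4 FPKM in vector cells and 79.9 and 66.0 in NR6A1 cells (limma adjusted p = 0.383), and Hspa1b at 22.1 and 18.2 against 14.9 and 13.8.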

How the data were processed

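Messenger RNA of 4 libraries was measured as FPKM, 1 value per gene symbol and library, as deposited by the authors. The submitters' processing notes name TopHat 1.2.0, Cufflinks 1.0.3 and the build mm9. Annotation and strand setting: not given in the sources used here. RNA, per the labels' protocols, was column-purified, DNase-treated and made into standard Illumina libraries of polyadenylated RNA. Overlapping genes may share reads.

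Values were tested as log2(FPKM + 1) with limma 3.58.1 (R 4.3.3), trend in the variance included and two-sided, for the 11346 genes that averaged 1 FPKM or more. The model held virus and clone, with p-values adjusted by Benjamini-Hochberg across the 11346 genes and a threshold of 0.05, and left 1 residual degree of freedom with a prior of 2.9. Clone pairs the libraries because each line received both viruses; across genes, which are not independent replicates, the clone difference under vector correlated with that under NR6A1 at r = 0.628 (0.873 once 200 short RNA genes were removed). The virus p-values set the change with NR6A1 against how alike that change was in the 2 lines. The clone p-values set the clone difference against how alike it was under the 2 viruses. Neither measures a spread between repeat cultures. The fit was tested on simulated data.

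Depth was inferred from steps between low FPKM values of 1818 genes with 1 annotated transcript of at least 1500 bases, less 210 bases. Between 50.3% and 52.6% of values under 10 reads lay within 0.1 of a whole read, so depths are estimates, no count test was run, and read numbers of members are rough. Transcript lengths came from GENCODE M21, and Cyr61 and Ctgf were matched to RefSeq through older symbols.

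The members, role groups and lists were chosen with earlier results of these data known. Members named in full differed by at least 1.5-fold in a clone or were among the 6 highest by mean; from the lists, up to 2 genes with the most even change in both clones were named, and further genes after their values were seen. Alternatives were pseudocounts of 0.1 and 5, no filter and one at 5 FPKM, scaling by upper quartile or by quantiles, no short RNA genes, no trend, a robust prior, no clone block, and each library left out.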

Additional observations from a re-analysis of the deposited data

Results flagged for a closer look

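In 5 members the clones moved in opposite directions with NR6A1, and by at least 1.5-fold in 1 of the clones; the difference between clones was not tested, since each had 1 library per virus. NR6A1 minus vector on the log2(FPKM + 1) scale was 0.63 in clone 6 and -0.10 in clone 12 for Fos, 0.84 and -0.20 for Egr1, 0.74 and -0.30 for Dusp1, and 0.97 and -0.42 for Dusp5. For Ptgs2 it was -0.79 in clone 6 and 0.30 in clone 12.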

How the results depend on the processing

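No member passed between viruses under any of the 14 alternatives. Over all genes, the number past the threshold was 4 and became 7 with a pseudocount of 5, 0 with no filter, 51 without short RNA genes, 38 with a robust prior and 0 with any 1 library left out. With no replicate block it was again 4 between viruses, and 1993 between clones in place of 2490; 12 of the 16 members called between clones were kept, and Klf6, Klf10, Hbegf and Zfp36 were lost. Between clones the number over all genes was 0 with no filter, 1581 with no variance trend, and 41 to 889 with 1 library left out. Of the 16 members, 11 were kept under quantile scaling, 13 under upper quartile scaling, 9 with no variance trend, 14 with a robust prior and 15 with a pseudocount of 5, and all 16 kept their direction under every alternative. The members higher by at least 1.5-fold in clone 6 numbered 10 and became 6 with a pseudocount of 5. In clone 12 the 1 higher member became 2 with a pseudocount of 0.1 and 0 with 5, and the 1 lower member became 2 with no filter and 0 at a filter of 5 FPKM. Leaving out 1 library, and with it the clone block, turned the fitted virus difference of 11 named members, which then ran from -0.53 to 1.05 for Fos, -0.59 to 0.49 for Junb, -0.20 to 0.98 for Atf3, -1.10 to 1.74 for Egr1, -0.49 to 0.70 for Myc, -0.55 to 0.79 for Ier2, -0.22 to 1.22 for Hbegf, -0.59 to 1.03 for Dusp1, -0.93 to 1.48 for Dusp5, -0.83 to 0.34 for Ptgs2 and -0.041 to 0.30 for Sgk1. Those of Ankrd1, Cyr61, Dusp4, Dusp6, Klf4, Maff and Rhob kept their direction. With 1 library left out, 1 virus group held a single clone, so the fitted virus difference also took in part of the clone difference. Whether a member kept its direction in these fits therefore also depends on the size of its clone difference. The cause of the other changes with processing was not tested. Depth limits Egr2, Egr3, Ereg and Areg most, some of whose values stand for about 30 reads or fewer.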

Other observations

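Yap1 had a neighbour that was also higher in clone 12, a pair chosen after the values were seen. In RefSeq order (GRCm38.p6, used here for gene order only) the next gene in the table is 9230110C19Rik, which was at 7.58 and 80.2 FPKM in vector cells (clone 6, then clone 12) and at 7.64 and 57.2 in NR6A1 cells (log2 difference 2.996 ± 0.14, SE, limma adjusted p = 0.00917). On the other side Birc3, an inhibitor of apoptosis, was at 1.34 and 5.31 against 1.58 and 4.31 FPKM (1.24 ± 0.16, limma adjusted p = 0.0248). The gene beyond it, Birc2, was at 7.12 and 9.79 against 6.51 and 8.32 FPKM and did not pass (limma adjusted p = 0.0659), and Tmem123, the next one, was at 56.8 to 58.0 FPKM in all 4 libraries. Arhgap42, the nearest tested gene after 9230110C19Rik, was at 7.50 and 8.66 against 5.99 and 7.82 FPKM (limma adjusted p = 0.134).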
